A study of Mus musculus with 6 samples.

Results

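Chemokines are small secreted proteins that bind G protein-coupled receptors on leukocytes and set the direction in which these cells move. The 9 chemokine ligand genes described here are Ccl5, Ccl6, Ccl8, Ccl22, Ccl21a, Cxcl9, Cxcl12, Cxcl16 and Ppbp, out of 1722 genes in the authors' deposited table of changed genes. They were chosen by name, as rows of that table. A row entered the table by passing the authors' limits on q (0.05) and on fold (2, either way), so each of the 9 genes had to differ between the groups, and all sizes and tests below describe that difference without being independent evidence for it.

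The study compared U14 cells labelled as overexpressing FOXP1, a forkhead transcription factor (genotype OEFOXP1), with U14 cells labelled WT. U14 is a mouse cervical carcinoma line, and mRNA was captured with oligo(dT) beads and sequenced as paired ends. There were 3 libraries in each group, called here overexpression libraries 2, 3 and 4, after the numbers in the table, and wild-type libraries 1, 2 and 3. The labels give neither the construct, the promoter that drives FOXP1 nor the number of clones, and the level of Foxp1 was not analysed here, which leaves the group labels unchecked against it.

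Levels are given in FPKM, fragments scaled by gene length and by library size. The libraries held 16824351 to 20410060 fragments in overexpression and 17994311 to 18668395 in wild type, and the counts behind each FPKM value were rebuilt from the table as whole numbers. Transcripts of leukocytes were present in both groups although the labels name a carcinoma line. Of 11 T cell markers 10 were in the table, all higher, with a summed level of 247.6 to 286 FPKM in overexpression and 54.3 to 97.4 FPKM in wild type. This sum, and those of the lists below, cover only genes in the table. Each had to differ to be there, so a gap between the groups in such a sum is no separate result. Counts of listed genes stand beside 9.59% of 15689 genes tested listed as higher and 1.38% as lower. Of the table itself 87.4% was higher. Of 8 epithelial markers only Krt18, which fell, and Epcam, which rose, were in the table. In bulk RNA a change in the number of cells of a type and a change in RNA per cell cannot be told apart.

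Of the 9 genes, 8 rose with FOXP1 overexpression and Ppbp fell in the authors' deposited table, where the background was 11.0% of 15689 genes tested called in either direction, 9.59% higher and 1.38% lower. Membership in the table was the condition for being chosen, so nothing is read from that count. By the folds of the authors' deposited table, the 9 genes had a median of 1.39 (log2), beside 1.38 over all 1722 genes. For the 8 that rose that table gives a median of 1.42, beside 1.46 over the 1505 genes listed as higher, from the authors' deposited table as well. Groups did not overlap in FPKM for any of the 9 genes, where this held for 93.0% of the table (80.7% with overexpression higher, 12.4% with it lower).

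**Figure D1:**
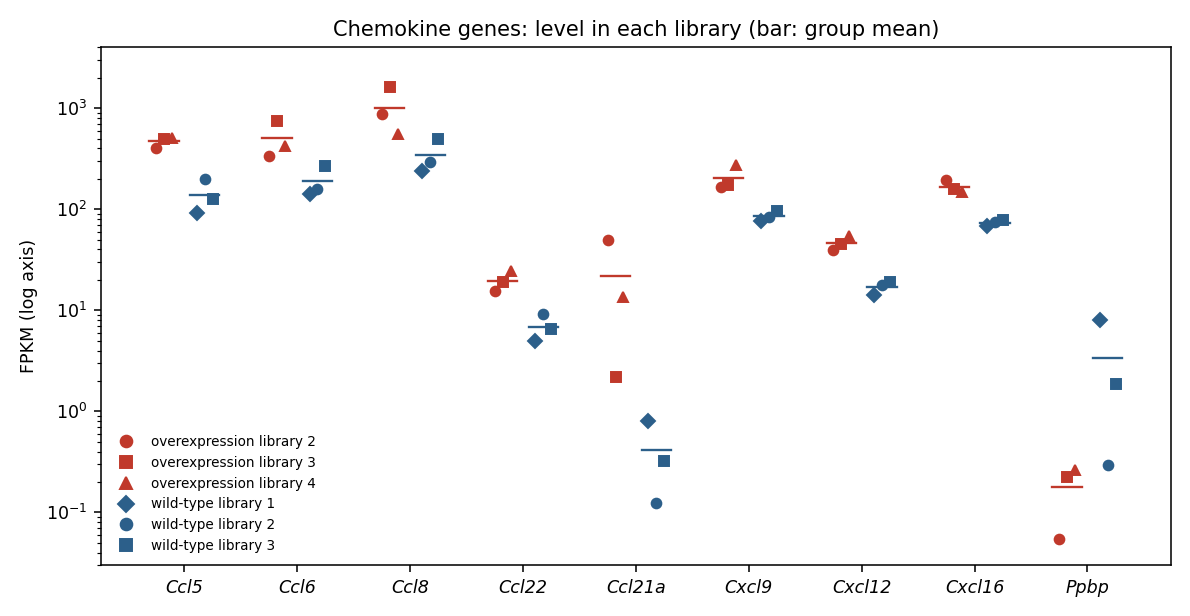
Level of each chemokine gene in FPKM (log axis) in the 3 overexpression libraries (red) and the 3 wild-type libraries (blue), with a bar at each group mean. Ccl8 reached 1611 FPKM in overexpression library 3, Ccl21a spread from 2.20 to 49.4 FPKM over the overexpression libraries, and Ppbp was the only gene of the 9 with overexpression below wild type.

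Promoter sequence is shown because FOXP1 is a DNA-binding factor. RefSeq (GRCm38.p6) gave the promoter of 7 of the 9 genes, and the 250 bases before each start are used. Capitals mark letters that match 1 of the motifs searched on both strands. The windows of Cxcl9 (chr5:92328080-92328329, minus strand), Ccl8 (chr11:82114935-82115184, plus strand), Cxcl12 (chr6:117168285-117168534, plus strand), Ccl21a (chr4:42773992-42774241, minus strand) and Ppbp (chr5:90768268-90768517, plus strand) are printed 5′ to 3′. Cxcl9, Ccl8 and Ppbp are shown for their motif matches, Ccl21a for the largest fold and Cxcl12 for the smallest q-value of the 9.
Cxcl9: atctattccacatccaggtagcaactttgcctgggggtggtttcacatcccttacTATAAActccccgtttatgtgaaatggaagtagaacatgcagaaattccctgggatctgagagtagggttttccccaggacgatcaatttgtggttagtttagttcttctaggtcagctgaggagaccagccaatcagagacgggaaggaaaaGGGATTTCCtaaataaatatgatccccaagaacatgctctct
Ccl8: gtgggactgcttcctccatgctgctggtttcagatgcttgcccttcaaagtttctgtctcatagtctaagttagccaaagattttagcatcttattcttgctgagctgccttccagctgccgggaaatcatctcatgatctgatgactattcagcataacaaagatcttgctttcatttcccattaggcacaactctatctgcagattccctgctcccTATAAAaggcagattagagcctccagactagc
Cxcl12: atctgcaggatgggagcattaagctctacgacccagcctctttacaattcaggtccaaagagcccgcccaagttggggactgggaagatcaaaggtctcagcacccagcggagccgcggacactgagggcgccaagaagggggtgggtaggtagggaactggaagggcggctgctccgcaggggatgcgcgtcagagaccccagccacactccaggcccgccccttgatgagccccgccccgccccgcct
Ccl21a: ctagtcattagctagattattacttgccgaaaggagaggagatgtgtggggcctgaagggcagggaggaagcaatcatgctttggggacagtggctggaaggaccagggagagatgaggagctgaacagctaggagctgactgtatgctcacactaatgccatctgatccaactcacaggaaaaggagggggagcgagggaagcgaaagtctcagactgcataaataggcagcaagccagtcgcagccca
Ppbp: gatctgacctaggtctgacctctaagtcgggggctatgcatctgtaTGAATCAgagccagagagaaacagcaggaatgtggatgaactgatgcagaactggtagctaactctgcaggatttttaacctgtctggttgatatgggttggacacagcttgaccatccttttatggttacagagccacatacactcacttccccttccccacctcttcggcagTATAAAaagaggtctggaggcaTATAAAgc

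The forkhead letters TGTTTAC were in none of the 7 windows, and neither was the shorter TGTTTA. Of all 32851 windows of the same length, 3.17% held TGTTTAC and 12.0% held TGTTTA, whose letters are the start of the longer motif. The NF-kB letters GGGANTTCC were in the Cxcl9 window only, as GGGATTTCC between 42 and 34 bases before the start, and in 1.43% of all windows. A longer NF-kB motif (1.21% of all windows), the STAT letters TTCNNNGAA (7.02%) and an IRF motif (2.98%) were in none of the 7. The AP-1 letters TGANTCA were in the Ppbp window only (6.75% of all windows). The TATA letters TATAAA, found in 12.4% of all windows, were in 3 of the 7, those of Ccl8, Cxcl9 and Ppbp. They began 32 bases before the start in Ccl8, 195 bases before it in Cxcl9, and 30 and 8 bases before it in Ppbp. A match is a run of letters, and its absence says only that these letters are not in the window.

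Among the CC chemokines of inflammation, Ccl5, made mainly by T cells and natural killer cells, had the largest log2 difference after Ccl21a. Ccl5 (Entrez 20304) stood at 406, 501 and 506 FPKM in overexpression libraries 2, 3 and 4, against 92.5, 199 and 126 FPKM in wild-type libraries 1, 2 and 3. The groups did not overlap, and the lowest overexpression library was 2.04 times the highest wild-type one. The difference was 1.82 ± 0.29 on the log2(FPKM + 1) scale (SE, n = 3 in each group; limma's moderated test with a trend, Benjamini-Hochberg adjusted p over the table of 0.00306). That test called 94.6% of the genes of the table. Ccl5 varied less among overexpression libraries, with an SD of 0.18 on the same scale, than among wild-type libraries, with an SD of 0.55. The median SD over the table was 0.24 in overexpression and 0.16 in wild type. Of 8 natural killer cell markers 4 were in the table, all higher, with a summed level of 73.7 to 97.3 FPKM in overexpression and 25.5 to 45.8 FPKM in wild type. The part of these cells and of T cells in the level of Ccl5 was not tested.

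Ccl8 and Ccl6, chemokines of macrophages and other myeloid cells, were the most abundant of the 9 beside Ccl5 and, among the overexpression libraries, more uneven than Ccl5. Ccl8 (Entrez 20307), in the mouse a ligand of Ccr8, stood at 880.4, 1611 and 549 FPKM in overexpression libraries 2, 3 and 4, against 240.0, 296 and 497 FPKM in wild-type libraries 1, 2 and 3. Its groups came within a factor of 1.11 of touching, between overexpression library 4 and wild-type library 3. The log2 difference was 1.49 ± 0.42 (SE; limma adjusted p of 0.0105), and the q-value in the authors' deposited table, 0.0257, was the largest of the 9. Only 12 genes of the table had a higher mean FPKM in overexpression than Ccl8. The genes nearest to it in profile over the 6 libraries, by Euclidean distance of centred log2(FPKM + 1) values, were Plaat3 (distance 0.49) and Trf (0.50), the gene of transferrin.

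Ccl6 (Entrez 20305), which binds Ccr1 in the mouse, stood at 336, 753 and 419.7 FPKM in overexpression libraries 2, 3 and 4, against 143, 158 and 266 FPKM in wild-type libraries 1, 2 and 3. Like Ccl8 it was highest in library 3 of each group, and the lowest overexpression library was 1.27 times the highest wild-type one. The log2 difference was 1.38 ± 0.36 (SE; limma adjusted p of 0.00746). By the same measure the genes nearest to Ccl6 were Cat, which encodes catalase (distance 0.14), and Retnlg (0.25), the only one of 8 neutrophil markers in the table. Retnlg stood at 4.89, 10.6 and 5.38 FPKM in overexpression libraries 2, 3 and 4, against 1.23, 1.23 and 2.83 FPKM in wild-type libraries 1, 2 and 3.

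Of 12 macrophage and monocyte markers 3 were in the table, all higher: Lyz2, Cd68 and Mertk. Their summed level was 5482 to 7592 FPKM in overexpression and 1052 to 1655 FPKM in wild type, most of it Lyz2. The other 9 markers were not in the table and are not part of that sum. None of the 3 was at 0 in any library. The part of these cells in the levels of Ccl6 and Ccl8 was not tested.

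Ccl22 (Entrez 20299), a ligand of Ccr4 made by dendritic cells and macrophages, was less abundant. It stood at 15.4, 19.1 and 24.6 FPKM in overexpression libraries 2, 3 and 4, against 4.94, 9.17 and 6.57 FPKM in wild-type libraries 1, 2 and 3. The groups were separated by a factor of 1.68 at their closest libraries. The log2 difference was 1.40 ± 0.27 (SE; limma adjusted p of 0.00346). Ubash3a was near to it in profile (distance 0.19). Of 10 dendritic cell markers, Flt3, Xcr1, Clec9a and Siglech were in the table, all listed as higher. Their summed level was 6.12 to 14.2 FPKM in overexpression and 2.45 to 3.37 FPKM in wild type. All 4 were lowest in overexpression library 4, where Ccl22 was highest. Siglech stood at 0.952 FPKM there, below its wild-type libraries (1.02 to 1.19 FPKM), and limma did not call it (adjusted p of 0.0833). The part of these cells in the level of Ccl22 was not tested.

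Ccl21a (Entrez 18829), which draws Ccr7-bearing lymphocytes and dendritic cells and is made by lymphatic endothelium and by stroma of lymph nodes, had the largest fold of the 9 and the least even one. It stood at 49.4, 2.20 and 13.6 FPKM in overexpression libraries 2, 3 and 4, against 0.803, 0.123 and 0.320 FPKM in wild-type libraries 1, 2 and 3. These values rest on 722, 39 and 209 fragments in overexpression and on 13, 2 and 5 fragments in wild type. Overexpression libraries 2 and 3 thus differed by a factor of 22.5, and the SD of 1.99 on the log2(FPKM + 1) scale exceeded that of 99.8% of the genes of the table.

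The exact Poisson interval, which covers counting error only, was 1.57 to 3.01 FPKM in overexpression library 3 and 0.427 to 1.37 FPKM in wild-type library 1 (95%), and these intervals, whose values lie apart by a factor of 2.74, did not overlap. The authors' deposited table gives a log2 fold of 5.67, the fourth largest there in either direction, with a q-value of 0.000123. The log2(FPKM + 1) difference was 3.26 ± 0.84 (SE; limma adjusted p of 0.00744). In voom on the rebuilt fragment counts, which adds its own small offset to the counts, the difference was 4.90 ± 1.72 (SE; adjusted p of 0.0216, in a test that called 95.6% of the table). In voom the call was lost without wild-type library 1 (log2 difference 5.503, adjusted p of 0.112), without wild-type library 2 (4.31, adjusted p of 0.0594) or without wild-type library 3 (4.88, adjusted p of 0.0653). Without overexpression library 2, which held 722 of the 970 overexpression fragments, the difference was 2.30 in limma and 3.85 in voom, and without overexpression library 3 it was 4.29 in limma and 6.09 in voom.

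Ccl21a has near-identical copies in the mouse genome. The annotated transcript of Ccl21b differed from that of Ccl21a at 2 of 402 bases compared (99.5% identical), so the fragments counted for Ccl21a may include those of its copies or miss some of them. The mouse genome holds Ccl19, another ligand of Ccr7, next to Ccl21a, and Ccl19 was the only other gene of the table among 40 chemokine ligands looked up. Ccl19 stood at 11.7, 10.5 and 4.08 FPKM in overexpression libraries 2, 3 and 4, against 1.61, 3.87 and 1.57 FPKM in wild-type libraries 1, 2 and 3. Its order among the overexpression libraries was not that of Ccl21a, since library 3 was near the top for Ccl19 and at the bottom for Ccl21a.

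Of 6 markers of lymphatic endothelium Prox1, Mmrn1, Reln and Pdpn were in the table, all higher, and all 4 were lowest in overexpression library 3, as Ccl21a was. Prox1, Mmrn1 and Reln were also highest in library 2, as Ccl21a was, while Pdpn was highest in library 4. Mmrn1 stood at 2.59, 0.264 and 1.93 FPKM in overexpression libraries 2, 3 and 4, against 0.0925, 0 and 0.0839 FPKM in wild-type libraries 1, 2 and 3. Prox1, the transcription factor that defines these cells, stood at 0.339, 0.0799 and 0.190 FPKM in overexpression libraries 2, 3 and 4, against 0.0125, 0 and 0.0389 FPKM in wild-type libraries 1, 2 and 3. The summed level of the 4 was 28.6 to 52.1 FPKM in overexpression and 15.7 to 16.6 FPKM in wild type, most of it Pdpn. Of 9 fibroblast and reticular stroma markers Dcn, Lum, Dpt and Thy1 were in the table, all higher, with a summed level of 448 to 734 FPKM in overexpression and 166 to 192 FPKM in wild type. None of 6 blood endothelium markers was in the table. The part of lymphatic endothelium or stroma in the level of Ccl21a was not tested.

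The genes nearest to Ccl21a in profile were Jchain and Mzb1, both known from antibody-secreting cells, at distances of 1.301 and 1.51, which are large beside those of the other rising chemokine genes. Jchain stood at 2997, 213 and 1084 FPKM in overexpression libraries 2, 3 and 4, against 179, 146 and 218 FPKM in wild-type libraries 1, 2 and 3. It shared with Ccl21a the order of the overexpression libraries, while its overexpression library 3 lay within the range of wild type. Of 7 B cell markers 7 were in the table, all higher, with a summed level of 100.8 to 274 FPKM in overexpression, highest in library 2, and 23.4 to 44.5 FPKM in wild type, and the part of B cells in this pattern was not tested.

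The CXC chemokines that rose spread by a factor of at most 1.66 over the overexpression libraries. Cxcl12 (Entrez 20315), a stromal chemokine that signals through Cxcr4 and is scavenged by Ackr3, had the smallest q-value of the 9 in the authors' deposited table, 8.81e-15. It stood at 39.4, 45.8 and 54.1 FPKM in overexpression libraries 2, 3 and 4, against 14.04, 17.6 and 18.9 FPKM in wild-type libraries 1, 2 and 3. The lowest overexpression library was 2.08 times the highest wild-type one, the widest separation among the CXC genes. The log2 difference was 1.41 ± 0.22 (SE; limma adjusted p of 0.00306). Its nearest genes in profile were Ephx1 and Tnfrsf14, both at a distance of 0.17.

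Cxcl9 (Entrez 17329), a ligand of Cxcr3 induced by interferon gamma, stood at 167, 175 and 276 FPKM in overexpression libraries 2, 3 and 4, against 76.6, 83.2 and 95.5 FPKM in wild-type libraries 1, 2 and 3. Overexpression library 4 stood above the other two, which lay close together. The log2 difference was 1.23 ± 0.25 (SE; limma adjusted p of 0.00367) and 1.002 without overexpression library 4. Ifng, the gene of interferon gamma, was the 1 gene in the table out of 9 of the interferon gamma axis. Ifng stood at 3.93, 4.21 and 8.52 FPKM in overexpression libraries 2, 3 and 4, against 0.487, 2.04 and 1.15 FPKM in wild-type libraries 1, 2 and 3. Both genes were highest in overexpression library 4, while within wild type Ifng was highest in library 2 and Cxcl9 in library 3. The part of interferon gamma in the level of Cxcl9 was not tested. Cxcl10 and Cxcl11, the other ligands of Cxcr3, were not in the table. The nearest genes to Cxcl9 in profile were Nrp2 (distance 0.15) and Marcks (0.23).

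Cxcl16 (Entrez 66102), a transmembrane chemokine shed as the ligand of Cxcr6, rose least of the 8. It stood at 196, 158 and 149 FPKM in overexpression libraries 2, 3 and 4, against 67.7, 74.5 and 78.8 FPKM in wild-type libraries 1, 2 and 3. The groups lay apart by a factor of 1.89 at their closest. The log2 difference was 1.17 ± 0.20 (SE; limma adjusted p of 0.00306). In the RefSeq annotation Cxcl16 overlaps Zmynd15, which was not in the table, and with the strand of counting not given in the sources used here fragments of the overlap could belong to either. Ccl5, Ccl6 and Ccl21a each overlap a long noncoding RNA gene that was not in the table (Gm32650, E230016K23Rik and 4930578G10Rik), with the same limit. Rab19 was nearest in profile (distance 0.080), followed by Cd81 (0.13).

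Ppbp (Entrez 57349), the precursor of platelet chemokines that act on Cxcr2, was the only one of the 9 that fell, and the authors' deposited table gives it -4.30 as log2 fold with a q-value of 0.000373. It stood at 0.0549, 0.226 and 0.260 FPKM in overexpression libraries 2, 3 and 4, against 8.07, 0.297 and 1.85 FPKM in wild-type libraries 1, 2 and 3. The values rest on 1, 5 and 5 fragments in overexpression and on 163, 6 and 36 fragments in wild type, so wild-type library 1 alone held 163 of 205. Wild-type library 2 lay beside overexpression libraries 3 and 4, with exact 95% Poisson intervals of 0.0735 to 0.528 and 0.0845 to 0.607 FPKM in overexpression libraries 3 and 4, and 0.109 to 0.646 FPKM in wild-type library 2.

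The SD of Ppbp among wild-type libraries, 1.41 on the log2(FPKM + 1) scale, exceeded that of 99.9% of the genes of the table. Its log2 difference was -1.45 ± 0.59 (SE; limma adjusted p of 0.0417). That call was lost without wild-type library 1 (-0.71, adjusted p of 0.0755), without wild-type library 3 (-1.54, adjusted p of 0.0728), and without overexpression library 2 (-1.37, adjusted p of 0.0896) or overexpression library 4 (-1.50, adjusted p of 0.0916). In voom on the fragment counts Ppbp was not called (-3.26 ± 1.65, SE; adjusted p of 0.0818). None of the 10 platelet and megakaryocyte markers, Pf4 among them, was in the table, so no such marker gives a value to set beside Ppbp. Its nearest genes in profile were Krt27 and Nppb, at distances of 1.51 and 1.64.

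**Figure D2:**
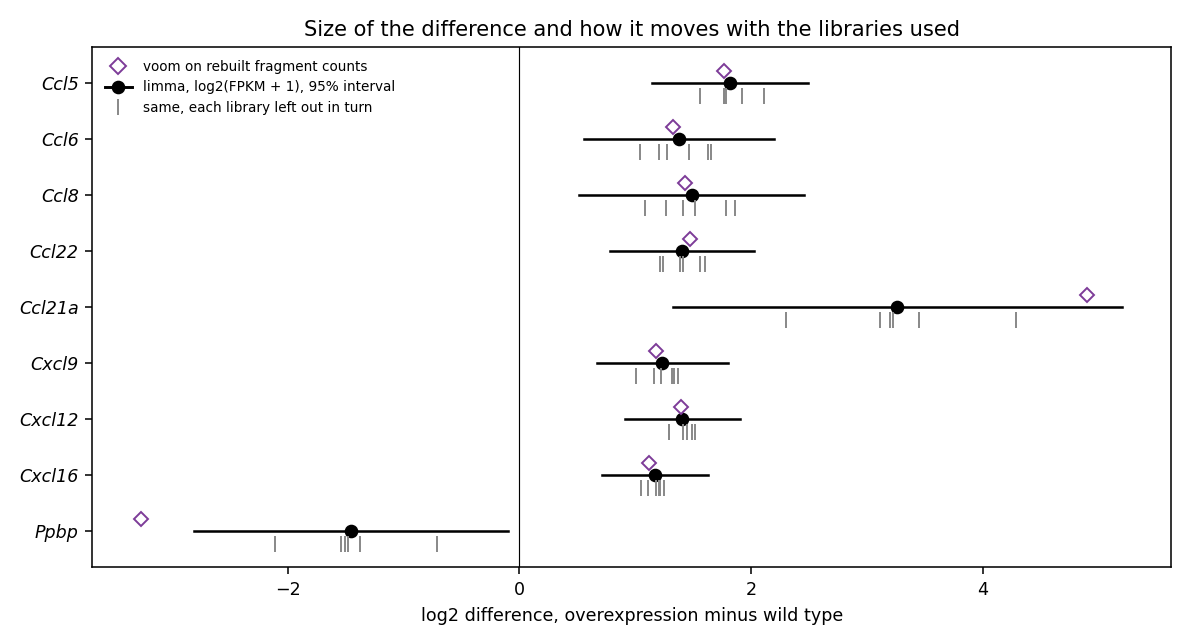
Log2 difference, overexpression minus wild type, of each gene (x axis) in limma on log2(FPKM + 1) with its 95% interval (black), in voom on rebuilt fragment counts (open diamonds) and in limma without each library in turn (grey ticks). Most ticks lie close to the black point, while those of Ccl21a run from 2.30 to 4.29 and those of Ppbp from -2.11 to -0.71.

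Summed over the 9 genes, the level was 2090, 3265 and 1993 FPKM in overexpression libraries 2, 3 and 4, against 648, 838 and 1090.4 FPKM in wild-type libraries 1, 2 and 3. The groups did not overlap, and the ratio of their means, 2449 ± 708 FPKM in overexpression over 859 ± 222 FPKM in wild type (SD, n = 3 each), was 2.85. Of the 9 genes 8 were listed as higher by at least 2-fold, so this gap follows from the choice of genes. Ccl8 made up 27.6% to 49.3% of the sum in overexpression and 35.3% to 45.6% in wild type. The share of Ccl5 was 15.3% to 25.4% in overexpression and 11.6% to 23.8% in wild type, and that of Cxcl9 was 5.36% to 13.9% in overexpression and 8.76% to 11.8% in wild type. These ranges overlapped for each of the 3 genes.

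**Figure D3:**
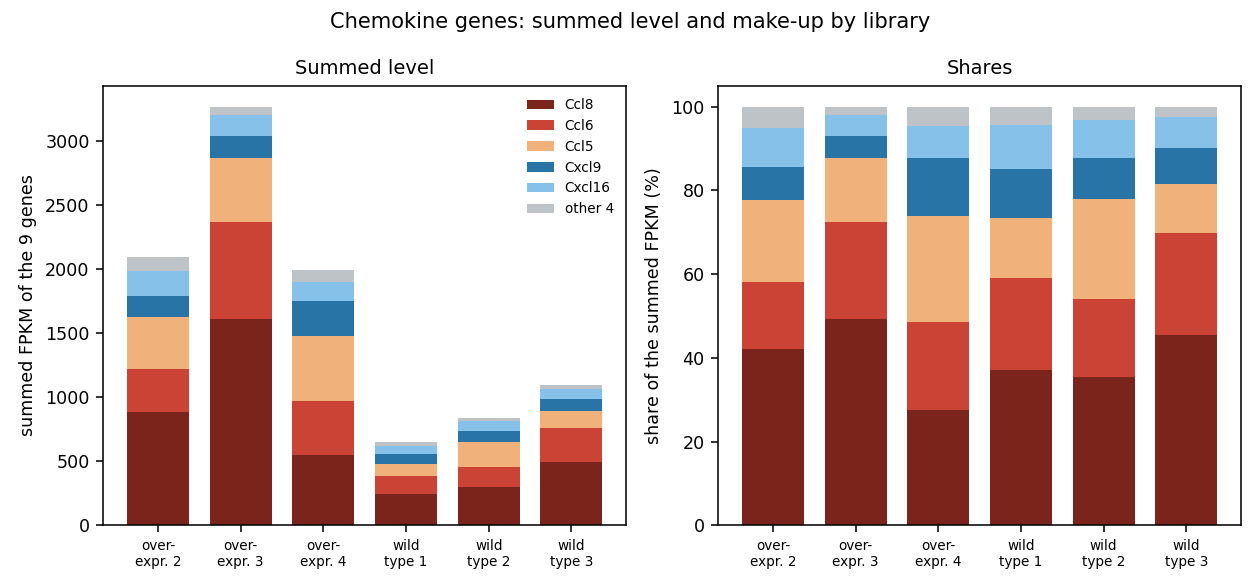
Summed FPKM of the 9 chemokine genes in each library (left, bars from 0) and the share of each gene in that sum in percent (right), with the 4 least abundant genes joined. The overexpression bars reach 1993 to 3265 FPKM, above 648 to 1090.4 FPKM in wild type, while Ccl8 holds the largest share in all 6 libraries.

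No library was high or low for all of the genes. Within overexpression, 5 of the 9 genes were highest in library 4, 2 in library 2 and 2 in library 3. Within wild type, 7 of the 9 were lowest in library 1 and 5 were highest in library 3. The closest pair of profiles among the 9 was Cxcl9 and Cxcl12 (distance 0.39), followed by Ccl22 and Cxcl12 (0.43), while Ccl6 and Ccl8, both highest in library 3 of each group, were 0.75 apart. With each library centred on the median of the table, which took a log2 shift of 0.81 out of a table whose genes are 87.4% higher ones, all 8 genes stayed above 0 and Ppbp below it. Only Ccl5 (1.01, adjusted p of 0.0262) and Ppbp (-2.26, adjusted p of 0.0240) were then called by limma, which called 31.2% of the table in that setting. Ccl21a was not called there (2.45, adjusted p of 0.0508).

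Of 18 chemokine receptor genes 8 (44.4%) were in the table, all higher, beside 9.59% of the 15689 genes tested listed as higher. Their median in the authors' deposited table was 1.78 (log2), beside 1.46 over the genes it lists as higher. Their summed level was 71.3 to 141 FPKM in overexpression and 27.3 to 34.9 FPKM in wild type. Cxcr6, the receptor of Cxcl16, stood at 16.6, 17.3 and 22.8 FPKM in overexpression libraries 2, 3 and 4, against 2.44, 5.55 and 3.38 FPKM in wild-type libraries 1, 2 and 3. No other receptor of the 8 had a larger fold than its 2.25 (log2) in the authors' deposited table.

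Cxcr3, the receptor of Cxcl9 on activated T cells, stood at 56.7, 19.4 and 50.5 FPKM in overexpression libraries 2, 3 and 4, against 11.6, 13.8 and 9.95 FPKM in wild-type libraries 1, 2 and 3. Cxcr4, the receptor of Cxcl12, stood at 49.1, 17.7 and 28.0 FPKM in overexpression libraries 2, 3 and 4, against 10.5, 10.2 and 11.8 FPKM in wild-type libraries 1, 2 and 3. Both were lowest in overexpression library 3, where neither of their ligands was. Ccr8, which binds mouse Ccl8, stood at 7.56, 6.61 and 4.10 FPKM in overexpression libraries 2, 3 and 4, against 1.48, 1.39 and 2.26 FPKM in wild-type libraries 1, 2 and 3.

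The other receptors in the table were scarce. Ccr4, the receptor of Ccl22, averaged 0.492 ± 0.148 FPKM in overexpression and 0.120 ± 0.0921 FPKM in wild type (SD, n = 3 each). Ccr6, Cxcr5 and Xcr1 averaged 2.42, 4.53 and 1.15 FPKM in overexpression and 0.519, 1.38 and 0.434 FPKM in wild type, and Cxcr5 was the only one of the 8 whose groups overlapped. Ccr1, Ccr7 and Cxcr2, receptors of Ccl6, Ccl21a and the products of Ppbp, were not in the table. Among 6 atypical receptors, which bind chemokines without the usual signal, Ackr2 and Ccrl2 rose. Ackr2, which takes up inflammatory CC chemokines, averaged 1.02 ± 0.509 FPKM in overexpression and 0.229 ± 0.113 FPKM in wild type. Ccrl2, which presents chemerin, averaged 11.7 ± 5.29 FPKM in overexpression and 4.86 ± 0.292 FPKM in wild type (SD, n = 3 each).

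**Figure D4:**
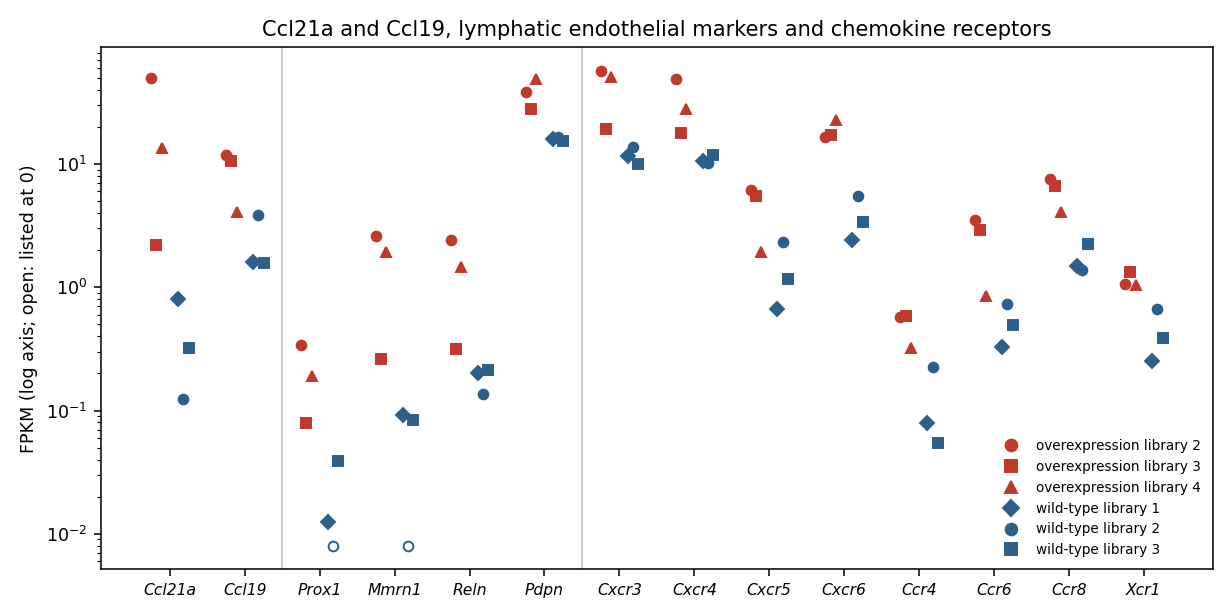
FPKM (log axis) of Ccl21a and Ccl19, of the lymphatic endothelium markers in the table and of the chemokine receptors in the table, in the overexpression (red) and wild-type (blue) libraries, with open symbols for values listed at 0. Ccl21a and the 4 markers are lowest in overexpression library 3 among the overexpression libraries, and so are Cxcr3 and Cxcr4.

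Of 32 genes of chemokine receptor signalling, 13 (40.6%) rose and 0 fell in the authors' deposited table, beside 9.59% and 1.38% of all genes tested. Their median there was 1.13 (log2), below the 1.46 of all genes listed as higher. Gng2, a G protein subunit, averaged 18.5 ± 3.10 FPKM in overexpression and 7.55 ± 0.978 FPKM in wild type, and Prex1, a Rac activator driven by G proteins, averaged 30.6 ± 5.56 FPKM in overexpression and 13.4 ± 2.30 FPKM in wild type (SD, n = 3 each). Plcb2 and Rasgrp1 averaged 3.77 and 7.05 FPKM in overexpression and 1.60 and 2.67 FPKM in wild type. Several of the 13, such as Dock2, Rac2 and Was, are known from leukocytes in general, and the part of leukocytes in their levels was not tested.

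Of 11 proteases that trim or release chemokines, 6 (54.5%) rose and 0 fell in the authors' deposited table, with 1.60 as their median (log2). Over all genes tested 9.59% were listed as higher and 1.38% as lower. Ctss, a lysosomal cysteine protease, averaged 1802 ± 188 FPKM in overexpression and 539.5 ± 94.1 FPKM in wild type. Mmp12, the macrophage elastase, averaged 150.5 ± 36.2 FPKM in overexpression and 50.03 ± 8.53 FPKM in wild type (SD, n = 3 each). The others were Mmp9, Ctsk, Mmp2 and Mmp8. Adam10 and Adam17, which shed Cxcl16, and Dpp4 were not in the table. Of 16 genes of the lymphotoxin and NF-kB axis, which maintains Ccl21a in lymphoid stroma, the ligand genes Ltb and Lta (12.5%) rose and 0 fell. That share is near the 9.59% of all genes tested. The other 14 were not in the table. Ltb stood at 59.2, 71.5 and 66.4 FPKM in overexpression libraries 2, 3 and 4, and Lta at 1.21, 2.32 and 1.63 FPKM. Both were thus highest in library 3, where Ccl21a was lowest, and lowest in library 2, where Ccl21a was highest. The part of this axis in the level of Ccl21a was not tested. Ltb was also the gene nearest to Ccl5 in profile (distance 0.31), before Cst7 (0.36).

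Chemokine genes lie in clusters, so the neighbours were looked up. In the gene order of RefSeq (GRCm38.p6), the immediate protein-coding neighbours of the 9 genes were 17 genes, of which 2 (11.8%) were in the table, Ccl19 beside Ccl21a and Heatr9 beside Ccl5. Over all protein-coding genes 7.78% were in the table. Ccl9 lies between Ccl5 and Ccl6 and was not in the table. The same held for Ccl12 and Ccl1 on the sides of Ccl8, for Cxcl5 and Pf4 on the sides of Ppbp, and for Cx3cl1 after Ccl22. Heatr9 was scarce, at 0.544, 0.554 and 1.18 FPKM in overexpression libraries 2, 3 and 4, against 0.173, 0.260 and 0.150 FPKM in wild-type libraries 1, 2 and 3.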

How the data were processed

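Per the submitters' processing notes, the authors used Trimmomatic and HISAT2, and DESeq is named as well, each without a version. Those notes list hg19, a human build, while gene symbols are murine. What counted the fragments, on which annotation and strand, is not given in the sources used here. In the deposited table there is 1 expression value per gene and library, taken from its values as FPKM made by the authors. Per the file headers it also holds the deposited group means of normalised signal (base means of DESeq2), and for each gene a fold ratio, its log2 value, a p-value and a q-value. The design had been planned for counts or FPKM, and FPKM was found.

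Counts were rebuilt from the FPKM values and the group means: 10332 of 10332 values came out whole within 0.01. The authors tested 15689 genes, taken from q over p for the gene of smallest p. Of the library columns 5 matched a sample title; the column numbered 4 did not, and its name gives the group alone. No label ties a library to a culture of its own, and the spread behind each p-value may therefore be technical.

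Calls are the authors'. Beside them limma 3.58.1 (R 4.3.3) was fitted with a trend to log2(FPKM + 1) over all 1722 genes, with Benjamini-Hochberg adjustment over the table and a threshold of 0.05. The log2(FPKM + 1) scale understates the change of low genes. The scripts were tested on simulated data. The members and gene lists were chosen with earlier results of these data known, and so were the motifs. Genes named are the 9 members, up to 4 genes of each list by smallest q, and the 2 nearest profiles to each member among genes of at least 1 FPKM, predicted genes aside (for Ccl22, 1 of the 2 is not reported here); others were named after their values were seen. Alternatives were another pseudocount, no trend, a filter of 1 FPKM, median centring, the replicate number as a block, leaving out each library, and voom on rebuilt counts; voom without each library, voom scaled by total fragments and adjustment over all genes tested were added after seeing the data.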

Additional observations from a re-analysis of the deposited data

How the results depend on the processing

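No gene of the 9 changed direction under any of the 21 alternatives run, but most of these could not have turned a sign. The groups of each gene did not overlap, so leaving out a library keeps the direction. Settings that change only the test, the filter or the adjustment reuse the same difference. Of the 189 values these gave, 156 kept their side of the threshold and 33 lost the call, 14 of them for Ppbp, 7 for Ccl21a and 0 for Ccl5. Limma called 9 of the 9 genes (94.6% of the table). It called 2 after median centring (31.2% of the table; 5 of the 9 at an unadjusted p under 0.05). Adjusted over all 15689 genes tested, limma called 5 (51.0% of the table) and voom 5 (52.8%), since more genes share the correction. In both these were Ccl5, Ccl22, Cxcl9, Cxcl12 and Cxcl16. Only genes of the table were fitted, and this adjustment takes every other gene as having a larger p. Without 1 library the count was 8 to 9 in limma (79.7% to 96.0% of the table) and 6 to 9 in voom (81.0% to 96.5%), where Ccl8 lost its call without wild-type library 1 (log2 difference 1.205, adjusted p of 0.0586). The numbers 2 and 3 that both groups share do not pair the libraries by any label, and the deviations of same-numbered libraries from their group means correlated at 0.02 and 0.08 over 1722 genes, so the blocked fit is given only here: with the replicate number as a block limma called 6 of the 9 genes, and 713 genes of the table (41.4%) against 1629 without it. In the blocked fit wild-type library 1 and overexpression library 4 each stand alone in a block. Its group difference therefore rests on libraries 2 and 3 of each group, and its lower counts of calls come with that loss of libraries. Depth limits Ppbp, with 11 fragments in overexpression, and Ccl21a, with 20 fragments in wild type.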
